A study of Mus musculus with 8 samples.

Results

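The genes described here encode, in the nucleus, the subunits of the 5 enzyme complexes of the mitochondrial respiratory chain, and they were followed in CD11b+ cells from the brains of mice that overexpressed CSF1 and of control mice. Members were taken by gene symbol alone (Nduf followed by a subunit letter and number, Sdha to Sdhd, Uqcr, Cox4 to Cox8, and Atp5), without use of any measured value, which gave 84 of the 20308 gene symbols in the count files. Of these, 37 carried complex I names, 4 complex II, 8 complex III, 18 complex IV and 17 complex V. The set as such was chosen with earlier results of these data known, so it is described with no test of its own.

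In CSF1 OE mice, the secreted form of CSF1, the ligand of the receptor on which microglia depend, was driven in a subset of GFAP+ cells by the TRE/tTA system, with EGFP from the same transgene. RNA came from 4 CSF1 OE and 4 control mice, all F1 offspring of C57Bl/6 and CD1 at an age of 14 or 15 days, and 1 mouse gave 1 library. Which transgenes, if any, the control mice carried and the sex of the mice are not given in the sources used here. Cells were drawn from the right hemisphere of PBS-perfused animals with magnetic beads against CD11b, a surface protein of microglia and other myeloid cells, after myelin had been taken out with Percoll. The cells made to overexpress CSF1 were thus of another type than the cells enriched for sequencing.

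The respiratory chain passes electrons from NADH (complex I) and succinate (complex II) through ubiquinone, complex III and cytochrome c to oxygen at complex IV, and the proton gradient built on the way drives ATP synthesis at complex V. Except for complex II, each complex mixes nuclear-encoded subunits with a few encoded by mitochondrial DNA. No mitochondrially encoded gene stands in the files used here (0 genes), so only the nuclear side could be followed. Microglia use both glycolysis and oxidative phosphorylation and can move between them. Nuclear-encoded subunit genes have no shared operon, and their promoters often hold sites for NRF1, for the ETS factor GABPA (NRF2), for YY1 and for SP1.

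The promoter stretches below belong to the member with the lowest p of complexes II, III, IV and V, shown because they carry letters searched for in all members. Each is the 200 bases before the start that RefSeq gives, written 5′ to 3′ on the gene's own strand, from the RefSeq table of GRCm38.p6. GENCODE M21, used for the positions of genes, starts *Sdhb* 68 bases and *Cox6b1* 37 bases further upstream, so that by GENCODE the last bases of these stretches, with the ETS letters of *Cox6b1*, lie within the gene. Capitals mark the ETS letters CCGGAAG, read here on the opposite strand as CTTCCGG, and the SP1 letters GGGCGG, read on the opposite strand as CCGCCC. The start of *Sdhb* lies after chr4:140961071-140961270 on the plus strand. The other stretches are on the minus strand, at chr4:116075071-116075270 for *Uqcrh*, chr7:30626115-30626314 for *Cox6b1* and chr2:174464102-174464301 for *Atp5e*.
Sdhb: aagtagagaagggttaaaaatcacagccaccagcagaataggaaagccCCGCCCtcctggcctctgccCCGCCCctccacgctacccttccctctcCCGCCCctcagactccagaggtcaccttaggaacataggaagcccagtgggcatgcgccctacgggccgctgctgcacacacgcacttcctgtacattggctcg
Uqcrh: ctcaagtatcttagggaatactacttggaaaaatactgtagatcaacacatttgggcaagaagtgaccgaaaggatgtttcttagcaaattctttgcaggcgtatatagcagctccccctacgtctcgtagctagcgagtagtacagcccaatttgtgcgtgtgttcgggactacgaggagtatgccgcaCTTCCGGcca
Cox6b1: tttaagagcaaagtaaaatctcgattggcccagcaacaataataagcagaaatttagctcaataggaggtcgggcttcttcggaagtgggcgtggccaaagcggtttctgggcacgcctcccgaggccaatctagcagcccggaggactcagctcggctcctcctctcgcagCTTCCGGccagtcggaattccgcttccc
Atp5e: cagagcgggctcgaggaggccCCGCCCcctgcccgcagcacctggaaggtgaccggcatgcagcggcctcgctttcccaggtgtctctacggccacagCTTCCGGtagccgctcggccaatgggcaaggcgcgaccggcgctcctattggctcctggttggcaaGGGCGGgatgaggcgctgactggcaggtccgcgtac

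Counting from the RefSeq start, the ETS letters began at -10 in *Uqcrh*, at -28 in *Cox6b1* and at -102 in *Atp5e*. In *Sdhb* they lay at 7, past the stretch shown, while the SP1 letters stood at -152, -132 and -104. *Ndufa9*, the complex I gene with the lowest p, held only the YY1 letters AAGATGGCG, at 30. A RefSeq window of 300 bases (250 before the start and 50 after it) was found for 69 of the 84 members, of which 66 were also tested for expression. Letters were searched on both strands, and the motifs were counted separately, so that overlaps were allowed. The NRF1 letters GCGCANGCG were in 19 of the 66 windows (28.8%), against 13.4% of the 10105 windows of all genes tested and 6.47% of all 27025 windows. The ETS letters were in 15 windows (22.7%, against 17.2% of genes tested and 9.12% of all windows), and the YY1 letters were in 7 (10.6%, against 3.04% and 1.49%). The SP1 letters stood in a smaller share of members, 27 windows or 40.9%, than of genes tested (64.1%), where 35.9% of all windows held them. The letters TCAAGGTCA of the estrogen-related receptors were in 2 windows (3.03%, against 0.267% and 0.407%) and the cAMP response element TGACGTCA in 4 (6.06%, against 3.19% and 1.88%). A match of letters is a description of the sequence and says nothing on whether a factor was bound.

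Expression is given as CPM, counts scaled to the TMM-normalized library size, and, where levels are compared between genes, as CPM per kilobase of the principal transcript. The files hold expected counts, in which RSEM gives each of several matching genes a part of a read. Many respiratory chain genes have processed pseudogenes, and 51 of the 84 members had a count that was not whole in at least 1 library, so that part of their reads was shared with other sequences. Totals ranged from 12908144 to 15475465 counts in control and from 12053259 to 14356532 in CSF1 OE mice. Control mouse 1934 and CSF1 OE mouse 2019 were the extremes of the first principal component (49.8% of the variance over the genes tested), and results are also given without them. The 10 microglia markers, among them *Cx3cr1*, *P2ry12*, *Tmem119* and *Csf1r*, were all detected, with a summed level of 21926 to 38294 CPM in control mice against 28192 to 39242 CPM in CSF1 OE and a median log2 fold change of 0.0065 (5 higher and 5 lower, from *Fcrls* at -0.63 to *Aif1* at 0.60). In bulk RNA, a change in the share of a cell type and a change in RNA per cell cannot be told apart.

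Respiratory chain genes were slightly higher in CSF1 OE than in control mice across all 5 complexes, but none of the genes was called with edgeR over the 8 mice. Of the 84 members, 79 passed the filter on low counts and were tested, together with 13407 genes in all. A log2 fold change above 0 was found in 77 of the 79, against 44.8% of all genes tested. The median log2 fold change of the 79 was 0.23 (range -0.74 to 0.57), where the median of all genes was -0.034. With edgeR, 0 of the 79 were called (adjusted p under 0.05 and a log2 fold change above 0.52 or below -0.51), beside 0.388% of all genes called higher. At any fold, 0 had an adjusted p under 0.05, where 0.448% of all genes did and were higher. At an unadjusted p under 0.05, 30 of the 79 (38.0%) were higher, against 10.1% of all genes, and 0 were lower, against 6.44%. All 4 CSF1 OE values lay above all 4 control values in 20 of the 79 (25.3%), against 6.84% of all genes. DESeq2 also called 0 members, but it gave 9 an adjusted p under 0.05 at a smaller fold (*Atp5e*, *Atp5l*, *Cox4i1*, *Cox6b1*, *Cox7a2l*, *Cox7b*, *Ndufa9*, *Sdhb* and *Uqcrh*), where 4.39% of the genes it tested were higher at that threshold.

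**Figure D1:**
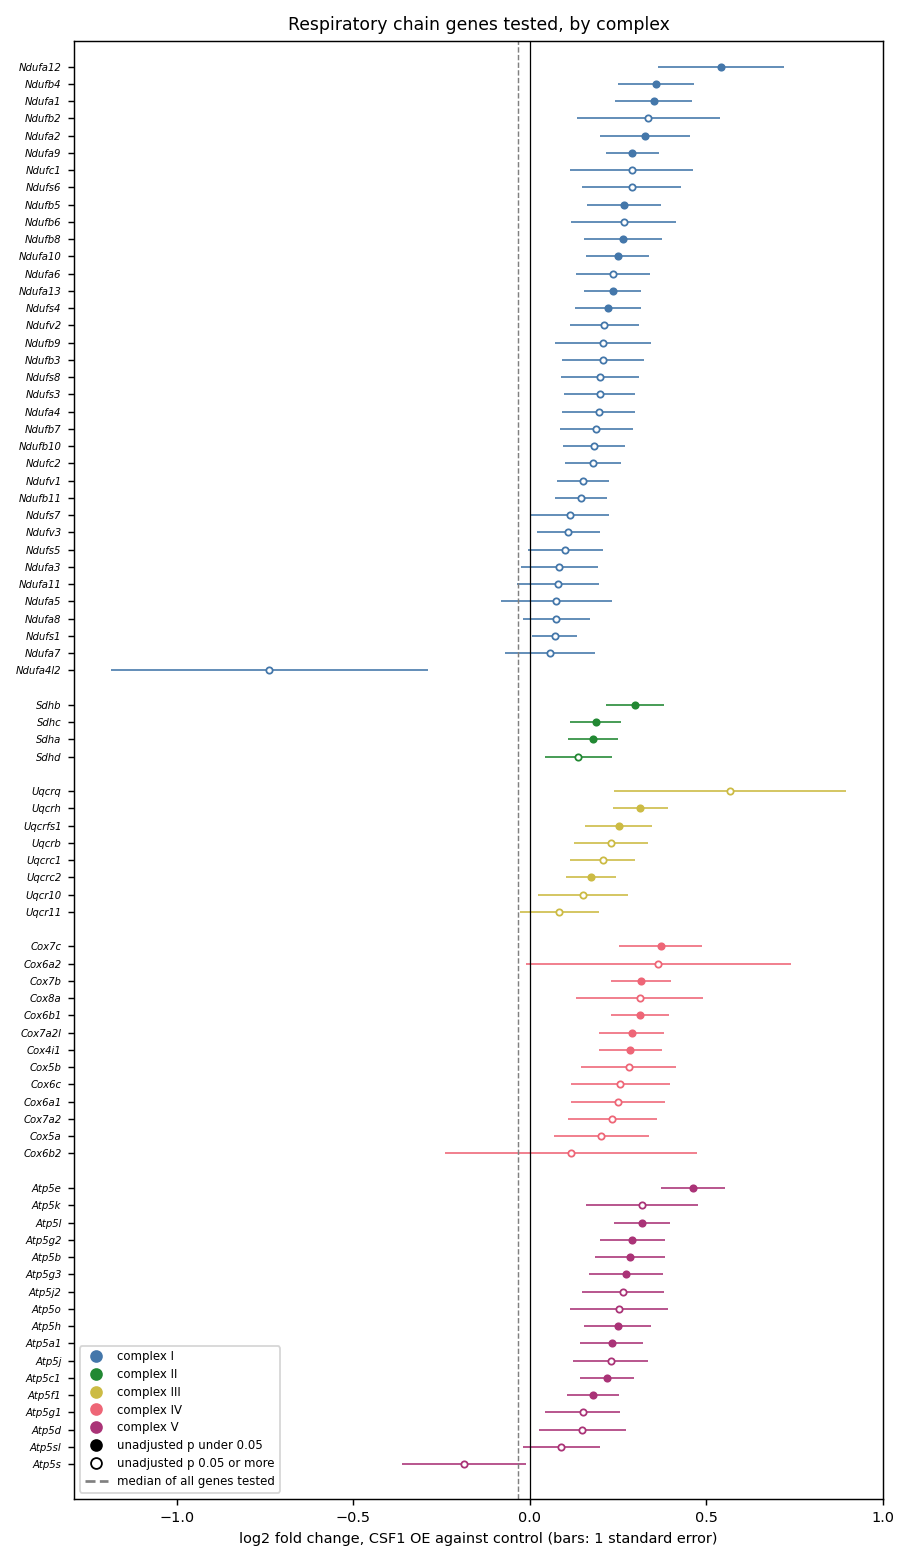
Log2 fold change of CSF1 OE against control (horizontal axis, bars of 1 standard error) for 78 of the 79 genes tested, grouped and coloured by complex and sorted within it. Filled points have an unadjusted p under 0.05 (30 genes), the dashed line is the median of all genes tested (-0.034), and only *Ndufa4l2* and *Atp5s* lie below 0.

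The summed level of the 84 members was 4561, 3993, 4169 and 4340 CPM in control mice 1827, 1872, 1874 and 1934. It was 5111, 4996, 5360 and 4588 CPM in CSF1 OE mice 1931, 1932, 1936 and 2019, and values of single mice follow this order throughout. All CSF1 OE sums lay above all control sums, although mouse 2019 exceeded the highest control mouse only narrowly. The means were 4266 ± 242 and 5014 ± 322 CPM (SD, n = 4 each), a ratio of 1.18. As a share of the raw counts, without TMM, the members took 0.391% to 0.486% in control and 0.430% to 0.548% in CSF1 OE mice, and these ranges overlapped.

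By complex, the ratio of the summed means was 1.14 for complex I, 1.14 for complex II, 1.17 for complex III, 1.22 for complex IV and 1.19 for complex V. The sums of complexes II, III and V did not overlap between genotypes, while those of complexes I and IV did. In each complex the lowest CSF1 OE sum and the highest control sum lay close together. They were 1157 and 1167 CPM in complex I, 378 and 371 in II, 455 and 441 in III, 745 and 754 in IV, and 1848 and 1827 in V. The members tended to be high or low together within a mouse. Of the 79 genes tested, mouse 1936 was the highest of the CSF1 OE mice in 46 and mouse 2019 the lowest in 56. Among control mice, 1827 was the highest in 36 and 1872 the lowest in 43. The members are therefore no independent measurements of the genotype.

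**Figure D2:**
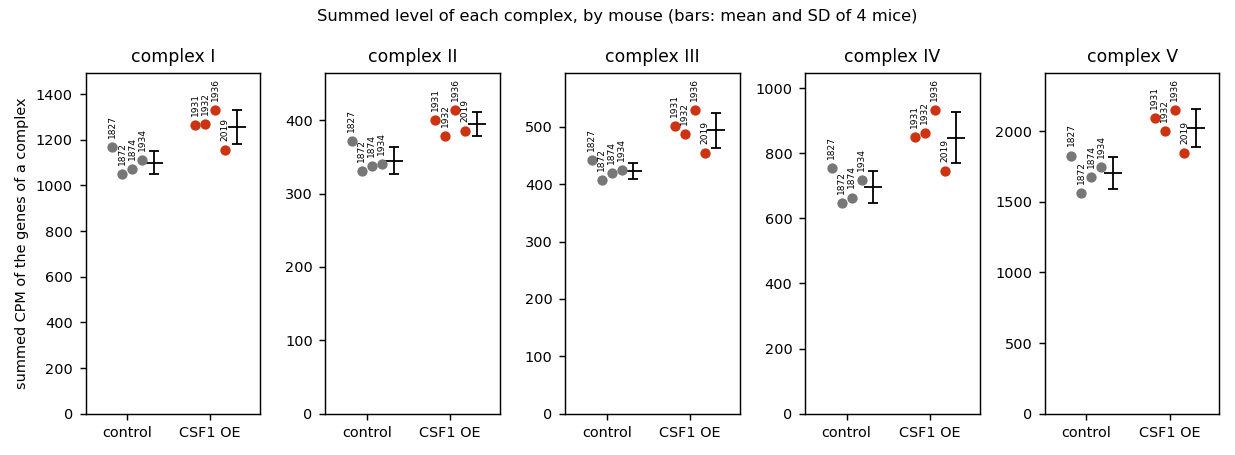
Summed CPM of all genes of each complex (vertical axes, from 0) in the 4 control (grey) and 4 CSF1 OE mice (red), labelled by animal number, with mean and SD beside the points. CSF1 OE mouse 2019 is the lowest CSF1 OE mouse in complexes I, III, IV and V and lies within the control range in complexes I and IV.

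The animal numbers from 1931 to 1936 held 1 control and 3 CSF1 OE mice, and the other numbers 3 control mice and CSF1 OE mouse 2019. Each comparison within a range thus rests on a single mouse of 1 genotype, control mouse 1934 or CSF1 OE mouse 2019. Of all 8 mice, 1934 had the lowest summed level of microglia markers (21926 CPM) and 2019 the highest (39242 CPM). The part of this difference in the ratios was not tested. Within the first range the ratio of the summed level was 1.19, and 72 of the 79 genes were higher in CSF1 OE (median log2 ratio 0.23). Within the other numbers the ratio was 1.08, and 62 of the 79 were higher (median 0.10). With a term for the range in the edgeR fit, the median log2 fold change was 0.16 with 72 of 79 higher, 14 genes (17.7%) were higher at an unadjusted p under 0.05, against 13.6% of all genes in that fit, 1 was lower, and 2 passed an adjusted p of 0.05 at any fold (*Atp5e*, 0.0361, and *Ndufa9*, 0.0434), where 4.28% of all genes did and were higher. Without CSF1 OE mouse 2019, 78 of 80 genes were higher, 45 at an unadjusted p under 0.05 against 9.53% of all genes, and *Atp5e* was called (log2 fold change 0.53, adjusted p = 0.0439). The share of all genes called without that mouse is not given here. With all 8 mice, 0.388% of all genes tested were called higher. Without control mouse 1934, 77 of 79 were higher with a median of 0.28. The count at an unadjusted p under 0.05 was 16 without control mouse 1872 (7.25% of all genes in that fit), 17 without control mouse 1874 (7.27%) and 17 without CSF1 OE mouse 1936 (8.18%).

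**Figure D3:**
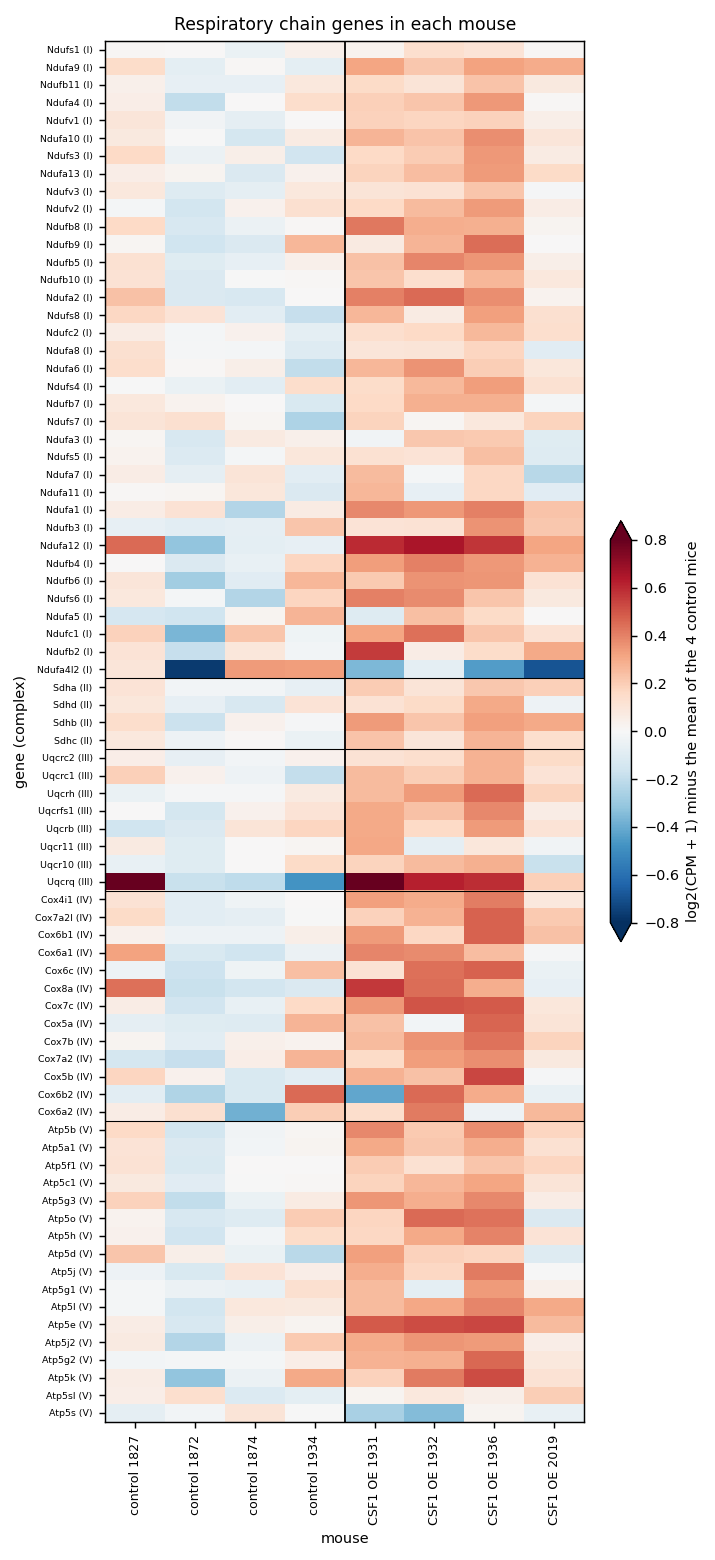
Log2(CPM + 1) of 78 of the 79 genes tested (rows, by complex, ordered by control level) in each of the 8 mice (columns), minus the mean of the 4 control mice, with red higher and blue lower and the colour scale ending at 0.8. CSF1 OE mice 1931, 1932 and 1936 are higher for most genes, mouse 2019 less so, and *Ndufa4l2* runs the other way.

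Complex I, the NADH dehydrogenase, had 37 members, and all were tested. Of these, 36 were higher in CSF1 OE, with a median log2 fold change of 0.20. At an unadjusted p under 0.05, 10 were higher (27.0%, against 10.1% of all genes tested). All CSF1 OE values lay above all control values in 6 (16.2%, against 6.84% of all genes tested). The 7 nuclear-encoded core subunits, which hold the flavin and the iron-sulfur clusters that carry the electrons, have longer transcripts than the accessory subunits (median 1623 against 747.5 nucleotides). Their log2 fold changes ran from 0.07 (*Ndufs1*) to 0.21 (*Ndufv2*) with a median of 0.15, and 0 of 7 had an unadjusted p under 0.05. The 28 accessory subunits had a median of 0.23, and all 10 of the genes at an unadjusted p under 0.05 were among them. After removal of the length and GC trend the order turned, with medians of 0.14 for core and 0.10 for accessory genes, and whether the groups differed was not tested.

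*Ndufv1*, which binds FMN and takes the electrons from NADH, had 51.1, 46.9, 45.3 and 47.9 CPM in control mice against 54.4, 53.9, 54.4 and 49.4 CPM in CSF1 OE. Only CSF1 OE mouse 2019 lay within the control range, and the log2 fold change was 0.15 (standard error, SE, 0.074, adjusted p = 0.348). *Ndufs1*, the largest iron-sulfur subunit, had 78.4 ± 2.17 CPM in control mice against 82.3 ± 3.46 CPM in CSF1 OE, with overlapping values. The other core subunits had overlapping values as well. *Ndufs3*, of the module that binds ubiquinone, had a log2 fold change of 0.20, while *Ndufs7* and *Ndufs8*, which hold iron-sulfur clusters next to it, had 0.11 and 0.20. Without control mouse 1934 the value of *Ndufs7* was 0.05.

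The lowest p of complex I belonged to *Ndufa9*, an accessory subunit at the joint of the peripheral and the membrane arm, on chromosome 6 from 126821721 to 126849136 (GRCm38). Its level was 67.3, 57.6, 61.2 and 57.7 CPM in control mice against 76.0, 70.8, 76.2 and 75.1 CPM in CSF1 OE. The genotypes did not overlap, and mouse 2019 was as high here as the other CSF1 OE mice. The log2 fold change was 0.29 (SE 0.075, adjusted p = 0.109). *Ndufa12*, an accessory subunit, had the largest log2 fold change of the complex, 0.54 (SE 0.18, adjusted p = 0.194). It had 19.6, 11.1, 13.2 and 13.4 CPM in control mice against 21.7, 22.6, 21.3 and 17.7 CPM in CSF1 OE, so that control mouse 1827 lay within the CSF1 OE range. *Ndufa4* was named after complex I and is now placed in complex IV. It was the most abundant of the Nduf genes per length, with 93.0 CPM per kilobase in control mice, and had a log2 fold change of 0.20 (SE 0.10, adjusted p = 0.381). Moving it to complex IV left the medians at 0.20 for complex I and 0.28 for complex IV.

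*Ndufa4l2*, the relative of *Ndufa4* that is induced by hypoxia, was the only complex I gene that was lower in CSF1 OE mice. It was rare, with 29, 9, 33 and 42 counts in control and 14, 22, 15 and 8 counts in CSF1 OE mice. These correspond to 1.95, 0.622, 2.49 and 2.48 CPM and to 1.15, 1.62, 1.02 and 0.708 CPM. Control mouse 1872 lay below all CSF1 OE mice, and the log2 fold change of -0.74 had a SE of 0.45 (adjusted p = 0.441). The least abundant complex I gene per length was *Ndufb2*, with 1.63 CPM per kilobase of a principal transcript of 2413 nucleotides.

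Complex II, succinate dehydrogenase, is the complex that also works in the tricarboxylic acid cycle, and all its subunits are encoded in the nucleus. All 4 genes were higher, 3 at an unadjusted p under 0.05, and 2 did not overlap between genotypes, with a median log2 fold change of 0.18. *Sdhb*, the iron-sulfur subunit (chromosome 4, 140961203 to 140979193), had 66.0, 52.8, 61.2 and 59.3 CPM in control mice against 75.6, 69.7, 75.0 and 73.8 CPM in CSF1 OE. All CSF1 OE values were above all control values, and the log2 fold change of 0.30 was the largest of the complex (SE 0.082, adjusted p = 0.135). *Sdha*, the flavoprotein that oxidises succinate, had 171, 156, 156 and 151 CPM in control mice against 182, 170, 185 and 181 CPM in CSF1 OE. Control mouse 1827 reached into the CSF1 OE range, and the log2 fold change was 0.18 (SE 0.072, adjusted p = 0.260). The membrane anchors *Sdhc* and *Sdhd* had log2 fold changes of 0.19 and 0.14, without overlap in *Sdhc* and with overlap in *Sdhd*. *Sdhd* was the most abundant of the 4 per length (57.6 CPM per kilobase in control mice), just above *Sdha* at 54.7, and *Sdhc* the least at 17.5.

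Complex III, the cytochrome bc1 complex, passes electrons from ubiquinol to cytochrome c. All 8 genes were higher, and the median of their log2 fold changes was 0.22. Of them, 3 had an unadjusted p under 0.05 (37.5%, where 10.1% of all genes tested were higher at that p). No overlap between genotypes was seen in 2 (25.0%, against 6.84% of all genes tested). *Uqcrh*, the hinge protein at the cytochrome c1 side (chromosome 4, 116066965 to 116075071), had 66.1, 68.2, 68.1 and 72.2 CPM in control mice against 81.8, 87.3, 94.5 and 77.6 CPM in CSF1 OE. The lowest CSF1 OE value lay above the highest control value, and the log2 fold change was 0.31 (SE 0.079, adjusted p = 0.104). It was also the most abundant complex III gene per length, with 126 CPM per kilobase in control mice. The Rieske iron-sulfur protein *Uqcrfs1* had 45.0 ± 3.27 CPM in control mice against 53.6 ± 5.13 CPM in CSF1 OE, and mouse 2019 lay within the control range. Its log2 fold change was 0.25 (SE 0.095, adjusted p = 0.238). The core proteins *Uqcrc1* and *Uqcrc2* had log2 fold changes of 0.21 and 0.17, with overlap in *Uqcrc1* and none in *Uqcrc2*.

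*Uqcrq*, a small subunit of complex III, had the largest log2 fold change of all members, 0.57, with a large error (SE 0.33, adjusted p = 0.422). It had 14.9, 6.78, 6.65 and 5.32 CPM in control mice against 16.0, 12.6, 12.3 and 9.03 CPM in CSF1 OE. Control mouse 1827 lay far above the other control mice and above all CSF1 OE mice but 1931, and without it the log2 fold change was 0.998 (adjusted p = 0.0689). At the other end, the small subunit *Uqcr11* had 21.6 ± 1.07 CPM in control mice against 22.9 ± 2.93 CPM in CSF1 OE, a log2 fold change of 0.08. Its sign turned without CSF1 OE mouse 1931 (-0.0029) and after removal of the length and GC trend (-0.06).

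Complex IV, cytochrome c oxidase, reduces oxygen, and its nuclear-encoded subunits surround a catalytic core made from mitochondrial DNA. Of the 18 members, 13 were tested and all 13 were higher. An unadjusted p under 0.05 was found in 5 (38.5%, against 10.1% of all genes tested). The genotypes did not overlap in 3 (23.1%, against 6.84% of all genes tested). The median log2 fold change was 0.28. Complexes were not tested against each other, and their order moved with the processing: after removal of the length and GC trend the medians were 0.11 for complex I, 0.24 for II, 0.13 for III, 0.15 for IV and 0.15 for V. The 10 subunits found in most tissues ran from 0.20 (*Cox5a*) to 0.37 (*Cox7c*) with a median of 0.28. The lowest p was that of *Cox6b1*, on the intermembrane side of the enzyme (chromosome 7, 30616861 to 30626151). It had 67.7, 64.2, 64.0 and 68.1 CPM in control mice against 83.9, 74.1, 91.9 and 77.8 CPM in CSF1 OE. All CSF1 OE values were above all control values, with a log2 fold change of 0.31 (SE 0.082, adjusted p = 0.118).

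*Cox4i1*, the subunit that binds ATP and slows the enzyme, was the most abundant complex IV gene per length with 207 CPM per kilobase in control mice. It had 169, 147, 153 and 156 CPM in control mice against 196, 192, 208 and 166 CPM in CSF1 OE. Mouse 2019 fell within the control range, and the log2 fold change was 0.28 (SE 0.089, adjusted p = 0.174). *Cox7c* had 40.5, 34.8, 37.2 and 43.5 CPM in control mice against 49.6, 55.5, 55.0 and 41.4 CPM in CSF1 OE, a log2 fold change of 0.37 (SE 0.12, adjusted p = 0.175). Again only mouse 2019 lay among the control mice. *Cox5a* and *Cox5b*, subunits on the matrix side, had log2 fold changes of 0.20 and 0.28 with overlapping values (adjusted p = 0.482 and 0.334), and that of *Cox5a* was 0.11 without CSF1 OE mouse 1936. *Cox7a2l*, which joins complex III and complex IV into supercomplexes, was the next most abundant per length (138 CPM per kilobase) and did not overlap between genotypes (log2 fold change 0.29, SE 0.092, adjusted p = 0.180).

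Tissue-restricted isoforms of complex IV were rare. *Cox4i2*, an isoform known from lung, had 2, 7, 8 and 14 counts in control and 6, 9, 14 and 5 in CSF1 OE mice. *Cox7a1*, of heart and muscle, had 11, 8, 5 and 5 counts against 9, 10, 8 and 2. *Cox8b*, of heart and muscle, had 3, 4, 4 and 2 counts in control and 1, 0, 0 and 0 in CSF1 OE mice, at or near the floor of 3 counts, so no fold is given. *Cox7b2* and *Cox8c*, known from testis, had 0 counts in all 8 mice. A count of 0 allows up to 3 counts in a library and covers counting error only. These 5 genes did not pass the filter. Of the isoforms that did, the muscle isoform *Cox6a2* had 5 to 19 counts and the testis isoform *Cox6b2* 15 to 52. Their log2 fold changes of 0.36 and 0.12 had SEs of 0.38 and 0.36, and that of *Cox6b2* turned to -0.16 with the term for animal numbers, to -0.04 after removal of the length and GC trend and to -0.08 without CSF1 OE mouse 1932.

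**Figure D4:**
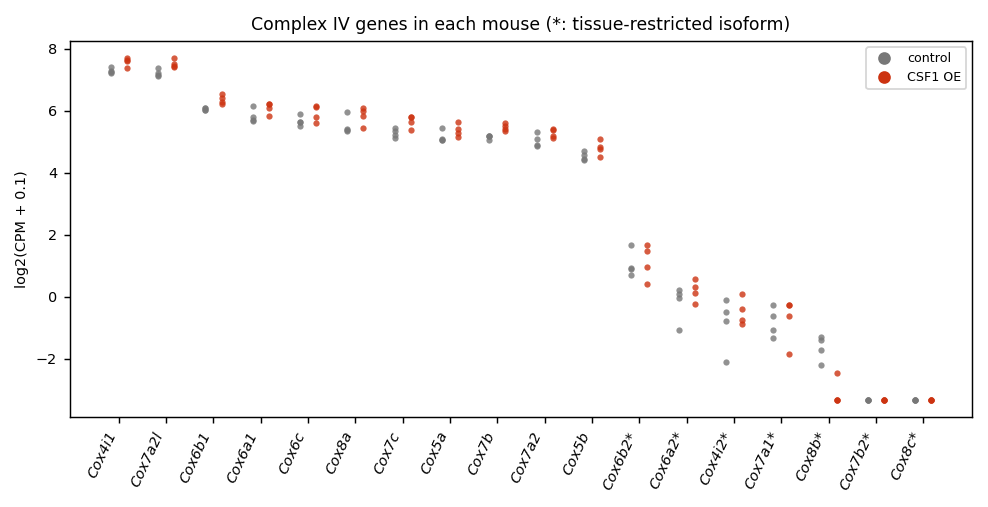
Log2(CPM + 0.1) (vertical axis) of the 18 complex IV genes in each control (grey) and CSF1 OE mouse (red), ordered by level, with tissue-restricted isoforms starred. The 11 unstarred genes lie well above the isoforms, and *Cox7b2* and *Cox8c* sit at the bottom with 0 counts in all 8 mice.

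Complex V, the ATP synthase, turns the proton gradient into ATP through a membrane rotor and a catalytic head, F1. All 17 members were tested, and 16 were higher (median log2 fold change 0.25). Of the 17, 9 were higher at an unadjusted p under 0.05 (52.9%, against 10.1% of all genes tested). No overlap between genotypes was seen in 7 (41.2%, against 6.84% of all genes tested). Of the 5 F1 subunits, 4 had an unadjusted p under 0.05 and did not overlap (*Atp5a1*, *Atp5b*, *Atp5c1* and *Atp5e*), and *Atp5d* did neither. *Atp5e*, the epsilon subunit of the central stalk (chromosome 2, 174461072 to 174464105), had the lowest p of all members. Its level was 42.6, 37.3, 42.3 and 41.6 CPM in control mice against 57.7, 59.2, 59.7 and 48.9 CPM in CSF1 OE. Mouse 2019 was again the lowest of the CSF1 OE mice and still above every control mouse. The log2 fold change was 0.46 (SE 0.090, adjusted p = 0.0558).

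*Atp5b*, the catalytic beta subunit, was the most abundant member per length, with 238 CPM per kilobase in control mice. It had 507, 411, 446 and 461 CPM in control mice against 595, 526, 588 and 513 CPM in CSF1 OE. The gap between mouse 2019 and control mouse 1827 was small, and the log2 fold change was 0.28 (SE 0.10, adjusted p = 0.213). *Atp5a1*, the alpha subunit, followed with 178 CPM per kilobase, and had 474, 405, 431 and 446 CPM in control mice against 542, 509, 535 and 476 CPM in CSF1 OE. Its log2 fold change was 0.23 (SE 0.089, adjusted p = 0.244), close to that of the gamma subunit *Atp5c1* at 0.22 (SE 0.076, adjusted p = 0.206).

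The c ring, which carries the protons, is built from 1 protein that *Atp5g1*, *Atp5g2* and *Atp5g3* all encode. *Atp5g2* had 39.1, 39.3, 39.2 and 41.2 CPM in control mice against 48.3, 48.6, 55.0 and 42.1 CPM in CSF1 OE, a log2 fold change of 0.29 without overlap (SE 0.092, adjusted p = 0.176). *Atp5g3*, the most abundant of these per length (115 CPM per kilobase in control mice), had a log2 fold change of 0.27. *Atp5g1*, the least (17.8), had one of 0.15, or 0.08 without CSF1 OE mouse 1936. That rank rests on a transcript length of 2675.5 nucleotides for *Atp5g1*, against 586 for *Atp5g2*. Not divided by length, *Atp5g1* had 47.5 CPM in control mice and *Atp5g2* 39.7 CPM. *Atp5g3* and *Atp5g1* overlapped between genotypes. The 4 peripheral stalk genes ran from 0.18 (*Atp5f1*) to 0.25 (*Atp5o*), 2 of them at an unadjusted p under 0.05, and the 3 small membrane subunits from 0.26 (*Atp5j2*) to 0.32 (*Atp5k*), 1 of them. Of all genes tested, 10.1% were higher at that p. The rule also took *Atp5s* and *Atp5sl*, which carry ATP synthase names but are no subunits of the enzyme. *Atp5s* had 5.22 ± 0.32 CPM in control mice against 4.59 ± 0.66 CPM in CSF1 OE, with a log2 fold change of -0.19 (SE 0.18, adjusted p = 0.626), and *Atp5sl* had 0.09. Without both genes the median of the members stayed at 0.23.

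Transcript length moved with the comparison. The tested members were short, with a median principal transcript of 861 nucleotides against 3022 for all genes tested. Across all genes, short transcripts were higher in CSF1 OE libraries. Per doubling of length, log2 CPM changed by -0.011 to 0.11 in control and by -0.061 to 0.0074 in CSF1 OE libraries, relative to the mean of all libraries, and these ranges overlapped. Under 1000 nucleotides, the 49 members had a median log2 fold change of 0.25 and the other 691 genes one of 0.16, or 0.14 without ribosomal protein genes. From 1000 to 2000 nucleotides the medians were 0.22 for 22 members and 0.034 for other genes, and from 2000 to 4000 they were 0.18 for 8 members and -0.042 for other genes. Removing the trend of each library on length and GC content brought the median of the members to 0.14, beside 0.034 for all genes. It left 67 of 79 members higher and 14 (17.7%) higher at an unadjusted p under 0.05, against 11.0% of all genes.

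**Figure D5:**
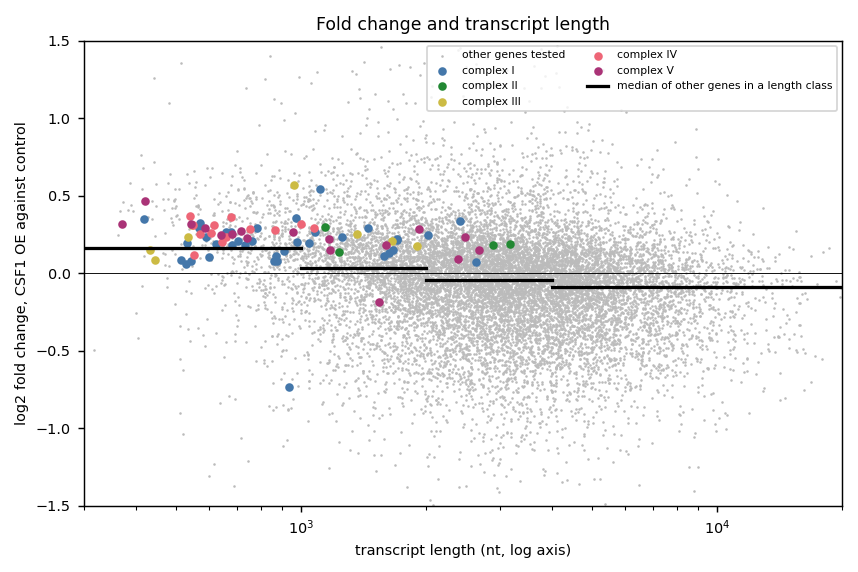
Log2 fold change of CSF1 OE against control (vertical axis, ending at -1.5 and 1.5) against principal transcript length in nucleotides (log axis) for the members, coloured by complex, and all other genes tested (grey). Black lines are the medians of other genes in a length class (0.16, 0.034, -0.042 and -0.088), and most members lie above the line of their class.

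Markers of several other cell types tended to be lower in CSF1 OE, but the summed level of every marker list overlapped between genotypes. Of all genes tested, 44.8% had a log2 fold change above 0. All 8 endothelial markers were lower in CSF1 OE (summed level 717 to 1208 CPM in control mice against 344 to 840 CPM in CSF1 OE, median log2 fold change -0.68), as were all 6 markers of border macrophages (1535 to 2439 and 1232 to 1843 CPM, median -0.47), all 5 of red blood cells (251 to 936 and 38.5 to 434 CPM, median -1.58) and all 7 of neurons (108 to 380 and 55.0 to 245 CPM, median -0.42). Of the 10 markers of the oligodendrocyte lineage, 8 were lower (2885 to 6039 and 1578 to 4972 CPM, median -0.33). Medians were -0.11 for 6 mural markers, -0.12 for 7 astrocyte markers, 0.24 for 6 markers of neutrophils and monocytes and -0.12 for 10 immediate early and stress genes. Log2 fold changes ran from -0.86 (*Ly6c1*) to -0.38 (*Pecam1*) in endothelial cells, from -1.11 (*Cd163*) to -0.16 (*Lyve1*) in border macrophages, from -1.63 (*Hba-a1*) to -1.46 (*Alas2*) in red blood cells and from -1.14 (*Syt1*) to -0.27 (*Map2*) in neurons. The highest of the oligodendrocyte lineage was *Pdgfra* at 0.33. They ran from -0.64 (*Acta2*) to 0.03 (*Kcnj8*) in mural cells and from -0.50 (*Gja1*) to 0.88 (*Gfap*) in astrocytes. In neutrophils and monocytes the ends were -0.84 (*Ly6c2*) and 0.36 (*S100a8*), and among immediate early and stress genes -0.67 (*Hspa1a*) and 0.38 (*Ier2*). At an unadjusted p under 0.05, 5 of the 6 border macrophage, 3 of the 8 endothelial and 1 of the 6 mural markers were lower. Of all genes tested, 6.44% were lower at that p. The other lists of this paragraph had 0 lower at that p, and 1 astrocyte marker, *Gfap*, was higher, against 10.1% of all genes tested. No marker tested was at 0 in all mice, and none of these genes was called. The part of these cells and of transcript length in the differences of the respiratory chain genes was not tested.

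Other genes of the pathway were looked at by lists fixed from known function. Of 9 subunits and carriers whose symbols the rule does not take, 4 were higher at an unadjusted p under 0.05 (44.4%, against 10.1% of all genes tested). Of the 9, 7 had a log2 fold change above 0, the median was 0.22 and 0 were called. The highest was *2010107E04Rik*, a small ATP synthase subunit, with 28.2 ± 2.59 CPM in control mice against 37.7 ± 5.24 CPM in CSF1 OE (log2 fold change 0.42, SE 0.12, adjusted p = 0.146). The lowest was *Etfdh*, which feeds electrons from fatty acid oxidation to ubiquinone, at -0.023. Cytochrome c itself, *Cycs*, had 58.3, 47.4, 54.5 and 56.8 CPM in control mice against 60.0, 66.1, 65.8 and 66.1 CPM in CSF1 OE, a log2 fold change of 0.25 without overlap (SE 0.084, adjusted p = 0.198). Of the 17 enzymes of the tricarboxylic acid cycle and pyruvate entry, which supply the electrons, 15 were higher (median 0.16, 0 called). At an unadjusted p under 0.05, 6 of the enzymes were higher (35.3%, against 10.1% of all genes tested). The highest, *Suclg2*, a subunit of succinyl-CoA ligase, had 58.0 ± 4.41 CPM in control mice against 76.0 ± 4.24 CPM in CSF1 OE, without overlap (log2 fold change 0.39, SE 0.080, adjusted p = 0.0626), and the lowest, *Dlat* of pyruvate dehydrogenase, was at -0.036. *Cycs* was chosen for naming after its values were seen.

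Assembly factors, which build the complexes without being part of them, stood closer to the median of all genes. Of 14 complex I factors, 9 were higher and 0 had an unadjusted p under 0.05 while higher (median 0.055, from *Ndufaf5* at -0.30 to *Ndufaf2* at 0.25). Of 7 factors of complexes II and III, 3 were higher (median -0.022, from *Lyrm7* at -0.80 to *Uqcc2* at 0.43). Of 19 complex IV factors, 14 were higher (median 0.13, from *Taco1* at -0.29 to *Lrpprc*, which stabilises mitochondrial mRNA, at 0.32). At an unadjusted p under 0.05, 2 of these factors were higher (10.5%, against 10.1% of all genes tested). The 3 complex V factors had a median of 0.084, from *Tmem70* at -0.07 to *Atpaf1* at 0.13. None of the assembly factors was called. The difference between subunits and assembly factors was not tested, and the assembly factors have longer transcripts (median 1711 nucleotides for those of complex I).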

How the data were processed

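RNA of CD11b+ cells was sequenced on paired ends from TruSeq RNA v2 libraries, 1 mouse per library and 4 mice per genotype. The submitters' processing notes name bcl2fastq 1.8.4, Bowtie 1.0.0, RSEM 1.2.7 and the build mm10. Which annotation and strand setting were used is not given in the sources used here. The authors deposited expected counts per gene symbol from RSEM, not normalized. They also deposited these counts after division by a size factor for each mouse, a signal on the scale of counts. In each library 20.8% to 26.5% of the expected counts had a fractional part. 0 columns were left unmapped. The authors' EBSeq calls were not used and EBSeq was not run.

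Samples were grouped by the genotype code in their labels. Expected counts were rounded and compared with edgeR 4.0.16 in R 4.3.3 (TMM, filterByExpr, glmQLFit, glmQLFTest) over all genes, with Benjamini-Hochberg adjustment over the 13407 genes kept, and called at an adjusted p under 0.05 and a log2 fold change above 0.52 or below -0.51, the fold limits of the study's methods. The common biological coefficient of variation was 0.228. The procedure was tested on simulated data. Alternatives were DESeq2 1.42.0, upper-quartile factors, all genes with a count, only genes with 10 or more counts in all libraries, limma 3.58.1 (trend) on log2 of the deposited signal with a pseudocount of 1, a term for animal numbers 1931 to 1936, removal of each library's trend on length and GC content (spline, 4 degrees of freedom), and each mouse left out. Lengths, GC content and positions came from GENCODE M21 principal transcripts, which held 99.5% of the symbols (19325 by symbol and 889 by an older symbol or synonym) and all 84 members.

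The members and lists were chosen with earlier results of these data known, so lists are described by counts and medians, with no test of their own. The genes named are the core and catalytic subunits, the c ring, tissue-restricted isoforms, in each complex the genes with the lowest p, the highest and lowest fold change and the highest level per length, and in each other list the genes with the highest and lowest fold change. A few genes that this rule takes are not reported here.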

Additional observations from a re-analysis of the deposited data

Results flagged for a closer look

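In 8 of 170 groups of 4 mice (each tested gene and summed level in each genotype), 1 mouse stood apart from the other 3 by more than Dixon's 95% limit, where chance alone gives about 1 in 20 groups. Control mouse 1934 was high for *Atp5g2* (41.2 CPM, the others 39.1 to 39.3), *Cox5a* (43.1 CPM, the others 33.0 to 33.8) and *Ndufb3* (21.2 CPM, the others 16.9 to 17.2). Control mouse 1827 was high for *Cox8a* (62.4 CPM, the others 40.3 to 42.1) and *Uqcrq* (14.9 CPM, the others 5.32 to 6.78). Control mouse 1872 was low for *Cox7b* (33.3 CPM, the others 35.9 to 36.4), control mouse 1874 for *Ndufa1* (16.2 CPM, the others 20.1 to 20.9) and CSF1 OE mouse 2019 for *Ndufv1* (49.4 CPM, the others 53.9 to 54.4).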

How the results depend on the processing

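No member was called under any of the alternatives run except 1, *Atp5e*, without CSF1 OE mouse 2019 (0 to 1 over the mice left out). At an adjusted p under 0.05 and any fold, the count of 0 became 9 with DESeq2, 2 with the term for animal numbers and 0 to 1 with a mouse left out. The 30 members higher at an unadjusted p under 0.05 became 14 with the term for animal numbers (13.6% of all genes in that fit), 14 after removal of the length and GC trend (11.0%) and 16 to 45 with a mouse left out, where 10.1% of all genes were so without these changes. The median log2 fold change of 0.23 became 0.14 after that removal and stayed between 0.16 and 0.28 under the other alternatives. The count of 20 genes without overlap was also 20 with the deposited normalized values. All 77 medians of single complexes lay above 0. Of the 79 members, 10 turned from higher to lower after removal of the length and GC trend, 5 with the term for animal numbers, 2 without CSF1 OE mouse 1931 and 1 without CSF1 OE mouse 1932. Among the 35 named genes that were tested, those that turned were *Cox6b2* (-0.16 with the term for animal numbers, -0.043 after removal of the length and GC trend, -0.0842 without CSF1 OE mouse 1932 and up to 0.3982 with another mouse left out), *Ndufa4* (-0.0239 after that removal) and *Uqcr11* (-0.0557 after that removal, -0.0029 without CSF1 OE mouse 1931 and up to 0.1355 with another mouse left out). The cause was not tested. No paired analysis was possible because the genotypes share no replicate numbers.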

Other observations

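Genes that make and import mitochondrial proteins were also looked at. Of 76 mitochondrial ribosomal protein genes, which translate the mitochondrially encoded subunits, 57 had a log2 fold change above 0. At an unadjusted p under 0.05, 10 were higher (13.2%, against 10.1% of all genes tested). Their median was 0.15, from *Mrps6* at -0.25 to *Mrpl52* at 0.68, and 0 were called. Of 19 genes of mitochondrial protein import, 17 were higher, 5 at an unadjusted p under 0.05 (26.3%, against 10.1% of all genes tested), with a median of 0.20 and 0 called. The highest was *Tomm7*, of the channel of the outer membrane, with 24.5 ± 2.56 CPM in control mice against 30.6 ± 3.40 CPM in CSF1 OE (log2 fold change 0.32, standard error 0.12, adjusted p = 0.219 from edgeR), and the lowest was *Timm9* at -0.12. Cytoplasmic ribosomal protein genes are as short as the respiratory chain genes (median 827 nucleotides) and differed more. All 79 that were tested were higher, 77 at an unadjusted p under 0.05 (97.5%, against 10.1% of all genes tested). Of them 19 were called, where 0.388% of all genes tested were called higher. The median was 0.50, from *Rpl7l1* at 0.18 to *Rpl32* at 0.68.

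Regulators of mitochondrial gene expression had a median log2 fold change of 0.0011, and 9 of 17 were higher, with 0 called. At an unadjusted p under 0.05, 1 was higher (5.9%, against 10.1% of all genes tested). The coactivators of mitochondrial biogenesis stood at both ends. *Ppargc1b* had 1.89 ± 0.61 CPM in control mice against 2.61 ± 1.04 CPM in CSF1 OE (log2 fold change 0.47, standard error 0.34, adjusted p = 0.524 from edgeR), and *Ppargc1a* had 3.54 ± 0.56 CPM and 2.75 ± 0.98 CPM (log2 fold change -0.36, standard error 0.29, adjusted p = 0.565 from edgeR). Both overlapped between genotypes. The regulator that was higher at an unadjusted p under 0.05 was *Gabpb2* (adjusted p = 0.238 from edgeR). Of the factors whose letters were searched in the promoters, and named for that after their values were seen, *Nrf1* had a log2 fold change of -0.05 and *Gabpa* one of 0.05. Values of the other factors searched are not given here.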
